A study of Homo sapiens with 6 samples.

Results

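The 10 genes described here encode AP-1 subunits and other factors of the immediate early response, chosen by symbol: FOS, FOSL1, FOSL2, JUN, JUNB, JUND, EGR1, KLF6, MAFF and ZFP36. Each symbol matched 1 row of the 24580 in the table, and 10 of 10 passed the filter on low values that left 14487 genes to test. Messenger RNA was sequenced in LoVo-HM, labelled a high-metastatic subline of LoVo, and in wildtype LoVo, an established human cell line from a colorectal adenocarcinoma, with 3 untreated libraries of each line. The labels do not say how the subline was derived, whether it is a clone, how dense the cultures were or how long before harvest they were fed, and they do not say that replicates were separate cultures, so p-values measure the spread between these libraries. Levels are FPKM (sequenced fragments divided by transcript length and by the number mapped in that library), which allow comparison between genes. In bulk samples such as these, fewer cells of a type and less RNA per cell cannot be told apart.

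AP-1 is a dimeric transcription factor in which a FOS protein pairs with a JUN protein, or JUN proteins with each other, through leucine zippers, and binds short sites in promoters and enhancers. FOS, FOSB, JUN, JUNB and EGR1 are immediate early genes, transcribed within minutes of a growth factor or stress signal without new protein synthesis, and their messengers decay fast, so their level also reflects the recent history of a culture. FOSL1 and FOSL2 lack the transactivation domain of FOS and accumulate later and for longer, and JUND is in many cells expressed steadily. ZFP36 belongs to the same early response, but its protein binds AU-rich messengers and speeds their decay.

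The promoters of 9 of the 10 genes were read from RefSeq (GRCh38.p14, 250 bases before to 50 bases after the start site, 5′ to 3′ on the gene's strand), and FOSL1 had no entry. Shown here are JUNB and FOSL2, which had the largest decrease and the largest increase of the 10, JUND and MAFF, which moved in opposite directions and both hold a cyclic AMP response element, and EGR1, which did not pass the test. Capitals mark the TATA box of JUNB, the cyclic AMP response elements of JUND and MAFF, the AP-1 site of FOSL2 and the pair of CArG boxes of EGR1, to which serum response factor binds. JUNB lies at chr19:12791236-12791535 on the + strand, JUND at chr19:18281573-18281872 on the - strand, FOSL2 at chr2:28392608-28392907 on the + strand, MAFF (the first of its 2 windows) at chr22:38201744-38202043 on the + strand and EGR1 at chr5:138465229-138465528 on the + strand.
JUNB: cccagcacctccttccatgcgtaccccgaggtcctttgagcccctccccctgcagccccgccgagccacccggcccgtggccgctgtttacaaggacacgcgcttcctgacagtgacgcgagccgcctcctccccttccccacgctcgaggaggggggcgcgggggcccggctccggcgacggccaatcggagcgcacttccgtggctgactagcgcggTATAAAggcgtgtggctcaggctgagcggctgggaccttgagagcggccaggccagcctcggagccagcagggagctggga
JUND: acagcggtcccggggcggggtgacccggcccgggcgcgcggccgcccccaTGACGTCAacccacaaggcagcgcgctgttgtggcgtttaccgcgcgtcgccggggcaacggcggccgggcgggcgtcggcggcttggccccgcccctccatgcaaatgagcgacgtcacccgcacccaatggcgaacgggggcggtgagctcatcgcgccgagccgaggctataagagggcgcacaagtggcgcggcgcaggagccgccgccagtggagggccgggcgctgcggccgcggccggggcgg
FOSL2: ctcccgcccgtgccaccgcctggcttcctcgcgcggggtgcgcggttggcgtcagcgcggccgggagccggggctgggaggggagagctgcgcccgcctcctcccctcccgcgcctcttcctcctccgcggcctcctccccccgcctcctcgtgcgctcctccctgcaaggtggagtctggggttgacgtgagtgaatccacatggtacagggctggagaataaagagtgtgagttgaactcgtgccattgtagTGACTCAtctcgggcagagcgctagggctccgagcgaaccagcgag
MAFF: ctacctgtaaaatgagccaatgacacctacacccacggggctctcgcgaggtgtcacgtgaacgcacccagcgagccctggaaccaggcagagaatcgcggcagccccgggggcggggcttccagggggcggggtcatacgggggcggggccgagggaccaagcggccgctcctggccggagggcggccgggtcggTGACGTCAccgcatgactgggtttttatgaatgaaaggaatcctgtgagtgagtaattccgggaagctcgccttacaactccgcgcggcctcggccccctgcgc
EGR1: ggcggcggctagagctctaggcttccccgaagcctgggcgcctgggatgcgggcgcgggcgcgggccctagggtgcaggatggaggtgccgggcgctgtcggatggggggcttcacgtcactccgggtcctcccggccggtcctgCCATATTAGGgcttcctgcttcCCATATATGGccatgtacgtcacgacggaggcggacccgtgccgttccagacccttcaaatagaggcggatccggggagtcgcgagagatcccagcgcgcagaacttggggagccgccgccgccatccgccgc

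Motifs were searched on both strands of all 35116 promoter windows in the table. The AP-1 site TGANTCA (C or G at N) was in 4.95% of windows and, among the 9 genes, in FOSL2, at bases 5 to 11 after the start. The cyclic AMP response element TGACGTCA was in 1.85% of windows and in JUND and MAFF. The CArG box was in 1.29% of windows and in EGR1, and the EGR1-type site GCGNGGGCG (G or T at N), which overlaps a GC box in KLF6, was in 5.77% of windows and in KLF6. The TATA box TATAAA was in 11.5% of windows and in FOS and JUNB, the GC box GGGCGG in 45% of windows and in 7 of the 9 genes, and the NF-kB site in 5.91% of windows and in the second window of MAFF. The cyclic AMP response element and the TATA box each stood in 1 gene that rose and 1 that fell in the comparison that follows, and a match describes the letters of the window and not a bound factor. Only exact matches to these patterns were counted, and sites outside the window were not searched. A gene without a match can thus still hold a variant site within the window or a site outside it.

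Setting LoVo-HM against LoVo asks which of these factors differ in level between the lines. In LoVo-HM, 5 of the 10 rose (FOS, FOSL1, FOSL2, JUND and KLF6), 3 fell (JUNB, MAFF and ZFP36), and JUN and EGR1 did not pass the test. The count of 8 of 10 stands against 44.9% of all tested genes, 21.8% higher and 23.1% lower, by limma with Benjamini-Hochberg adjustment over all 14487 genes and a threshold of 0.05. The 10 genes were chosen with earlier results of these data known, so comparisons with all tested genes are not independent of the data. FOSL2 and JUNB changed at least 2-fold on the log2(FPKM + 1) scale (2 of 10, against 6.56% of tested genes). MAFF did not reach 2-fold on that scale (-0.91), although its ratio of mean FPKM was 0.481. For 8 of the 10 genes every library of 1 line lay above every library of the other, as for 55% of tested genes. The median size of the log2 difference was 0.55 over the 10 genes and 0.21 over all tested genes, while the median signed difference was 0.14 over the 10 genes and 0.0027 over all. Summed over the 10 genes, levels were 154, 159 and 148 FPKM in LoVo-HM, against 154, 149 and 148 FPKM in LoVo. The summed level thus overlapped between the lines. Log2 differences are LoVo-HM minus LoVo on the log2(FPKM + 1) scale ± SE, where the added 1 shrinks the differences of weakly expressed genes.

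**Figure D1:**
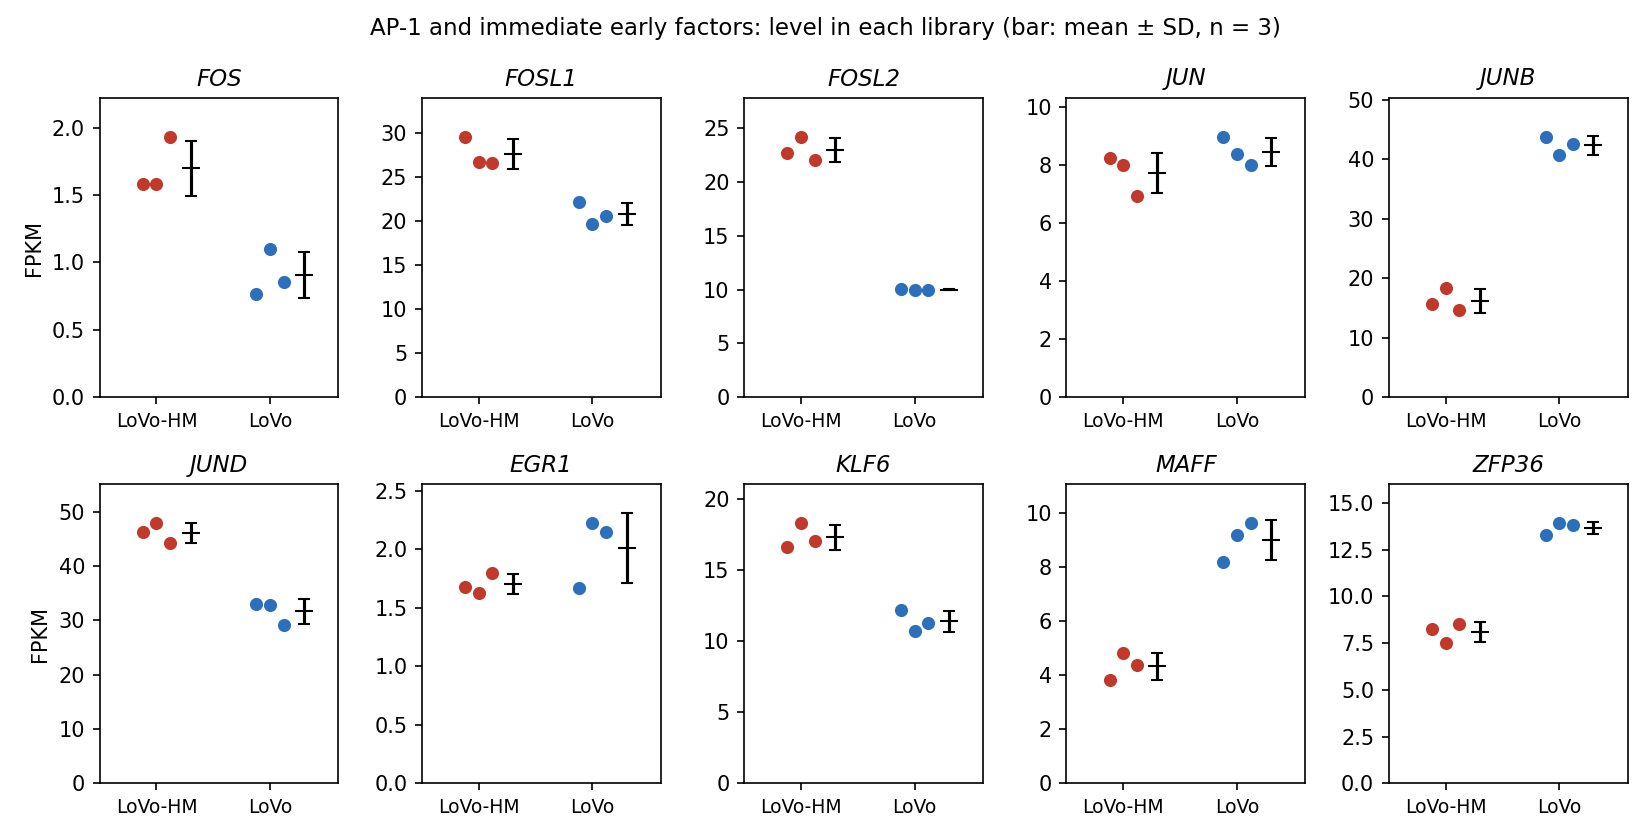
Level of each of the 10 genes in every library, in FPKM on an axis from 0, with LoVo-HM in red on the left and LoVo in blue on the right. Black bars give the mean ± SD of 3 libraries, and the points of the lines overlap for JUN and EGR1.

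Among the FOS genes, FOSL2 had the largest log2 difference. FOSL2 (ENSG00000075426, chromosome 2, 28392448 to 28417312, GRCh38), also called Fra-2, stood at 22.7, 24.2 and 21.99 FPKM in LoVo-HM, against 10.03, 9.97 and 9.91 FPKM in LoVo. The LoVo libraries lay within a range far narrower than the gap to the lowest LoVo-HM library. Its mean was 2.30 times that of LoVo (22.9 ± 1.11 FPKM in LoVo-HM, against 9.97 ± 0.0585 FPKM in LoVo, SD, n = 3 libraries each), with a log2 difference of 1.13 ± 0.057 and a limma adjusted p of 9.11e-07. This increase was number 286 from the top among the tested genes.

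FOSL1 (ENSG00000175592, chromosome 11, 65892049 to 65900573), or Fra-1, a subunit reported to promote invasion of carcinoma cells, was at 29.6, 26.7 and 26.7 FPKM in LoVo-HM, against 22.2, 19.7 and 20.6 FPKM in LoVo. It rose by a factor of 1.33 (log2 difference 0.39 ± 0.065, limma adjusted p = 0.00139), and no LoVo library reached the lowest LoVo-HM library. FOS itself (ENSG00000170345, chromosome 14, 75278774 to 75282230) was with EGR1 the lowest of the 10 genes, at 1.58, 1.58 and 1.93 FPKM in LoVo-HM, with 0.768, 1.10 and 0.855 FPKM in LoVo. At this low level its mean ratio was 1.87, and its log2 difference of 0.50 ± 0.111 (limma adjusted p = 0.00632) became 0.84 with a pseudocount of 0.1 in place of 1. FOSB, the fourth FOS gene, went the other way, with 1.52, 1.25 and 0.886 FPKM in LoVo-HM, against 1.90, 2.44 and 1.89 FPKM in LoVo (log2 difference -0.48 ± 0.132, limma adjusted p = 0.0180). The FOSB call was lost without LoVo-HM replicate 3 (adjusted p = 0.0528) and without LoVo replicate 2 (0.0653).

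Added together, the 4 FOS genes gave 55.4, 53.7 and 51.5 FPKM in LoVo-HM, against 34.9, 33.2 and 33.3 FPKM in LoVo. FOSL1 and FOSL2 supplied most of this sum in every library, and FOS and FOSB little. FOSL2 made up 42.9 ± 2.02% of the sum in LoVo-HM and 29.5 ± 0.681% in LoVo, and FOSL1 51.6 ± 1.85% in LoVo-HM and 61.6 ± 2.16% in LoVo (SD, n = 3 each). FOS had 3.19 ± 0.493% of the sum in LoVo-HM and 2.70 ± 0.564% in LoVo, values that overlapped, and FOSB 2.26 ± 0.512% in LoVo-HM and 6.15 ± 1.03% in LoVo. The FOSL2 level divided by that of FOSL1 was 0.768, 0.906 and 0.825 in LoVo-HM and 0.452, 0.507 and 0.481 in LoVo, and this ratio within a library does not depend on how libraries are scaled against each other.

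Of the JUN genes, JUNB fell, JUND rose and JUN did not pass the test. JUNB (ENSG00000171223, chromosome 19, 12791496 to 12793315), which in many settings is a weaker activator than JUN and can oppose it, had 15.6, 18.4 and 14.6 FPKM in LoVo-HM, against 43.8, 40.7 and 42.6 FPKM in LoVo. Every LoVo library stood above the highest LoVo-HM library by a wide margin. JUNB averaged 16.2 ± 1.96 FPKM in LoVo-HM, against 42.4 ± 1.57 FPKM in LoVo, a ratio of 0.382 (log2 difference -1.34 ± 0.081, limma adjusted p = 2.85e-06), and was number 378 from the bottom among tested genes. In GENCODE 29, 259 exonic bases of JUNB overlap exons of HOOK2 on the opposite strand, and the counting's strand setting is unstated, so reads there cannot be told apart. HOOK2 stood at 15.6, 15.3 and 15.5 FPKM in LoVo-HM, against 18.0, 16.4 and 17.9 FPKM in LoVo.

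JUND (ENSG00000130522, chromosome 19, 18279760 to 18281622), a subunit reported to slow the growth of fibroblasts, went the opposite way, with 46.2, 47.9 and 44.3 FPKM in LoVo-HM, against 33.1, 32.8 and 29.1 FPKM in LoVo. It rose by a factor of 1.46 (log2 difference 0.53 ± 0.062, limma adjusted p = 0.00018), again with no overlap. JUN (ENSG00000177606, chromosome 1, 58780788 to 58784327), the founding member and a target of the JNK kinases, was at 8.23, 7.99 and 6.92 FPKM in LoVo-HM, against 8.96, 8.37 and 7.99 FPKM in LoVo. The ranges of JUN overlapped, and its log2 difference of -0.12 (95% interval -0.30 to 0.07, limma adjusted p = 0.271) did not pass the threshold.

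The level of JUNB divided by that of JUND was 0.338, 0.384 and 0.330 in LoVo-HM and 1.32, 1.24 and 1.46 in LoVo. JUND was thus the higher of the pair in each LoVo-HM library, and JUNB in each LoVo library. JUNB made up 23.1 ± 1.46% of the summed JUN-family FPKM in LoVo-HM and 51.4 ± 1.92% in LoVo, JUND 65.9 ± 1.40% in LoVo-HM and 38.4 ± 1.79% in LoVo, and JUN 11.01 ± 0.650% in LoVo-HM and 10.2 ± 0.207% in LoVo. The sum itself was 70.0, 74.2 and 65.8 FPKM in LoVo-HM, against 85.8, 81.8 and 79.7 FPKM in LoVo, lower in LoVo-HM without overlap, whereas the FOS-family sum was higher there.

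**Figure D2:**
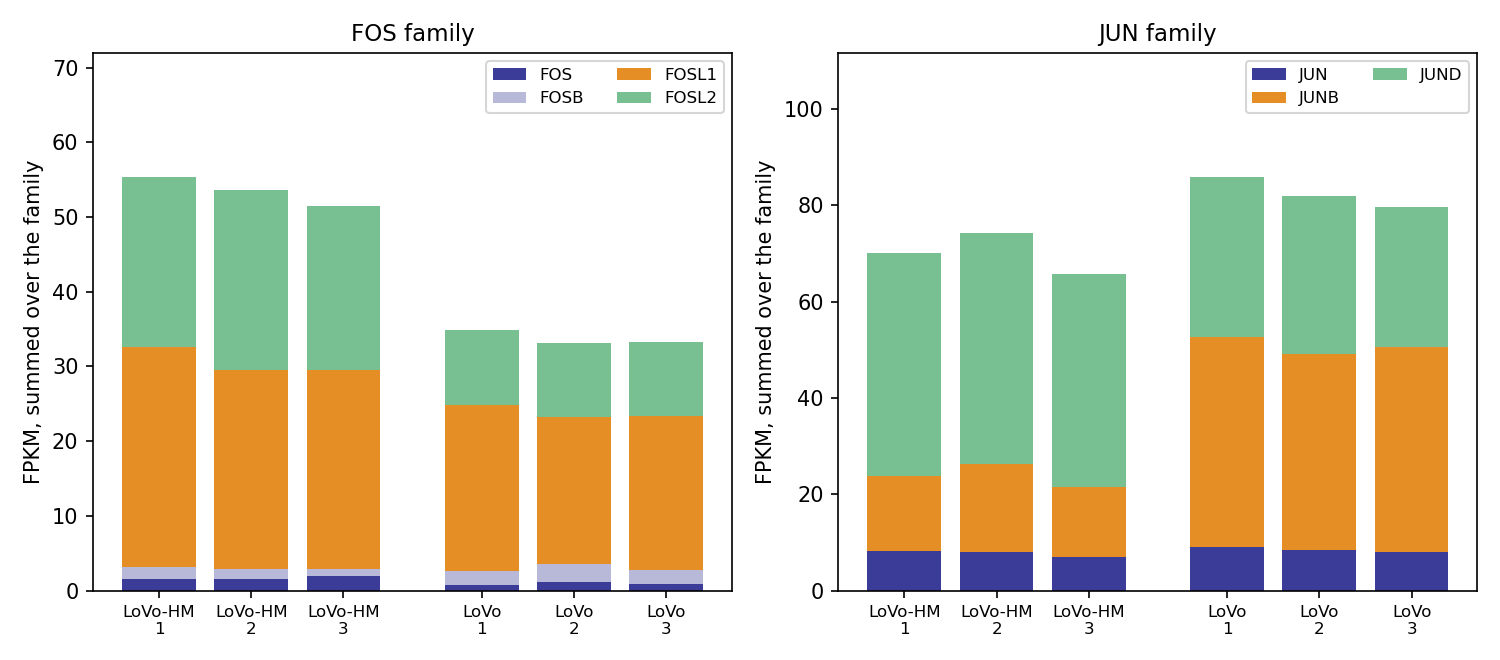
Summed FPKM of the FOS family (left) and the JUN family (right) in each library, stacked by gene on axes from 0, LoVo-HM libraries first. FOSL2 takes 42.9% of the FOS bars in LoVo-HM and 29.5% in LoVo, and JUNB takes 23.1% of the JUN bars in LoVo-HM and 51.4% in LoVo.

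Of the factors outside the FOS and JUN families, KLF6 rose, MAFF and ZFP36 fell and EGR1 did not pass the test. KLF6 (ENSG00000067082, chromosome 10, 3775996 to 3785281), a zinc finger factor reported as a tumor suppressor, had 16.6, 18.3 and 17.1 FPKM in LoVo-HM, against 12.2, 10.8 and 11.3 FPKM in LoVo. Its mean was 1.52 times that of LoVo, with no overlap (log2 difference 0.56 ± 0.067, limma adjusted p = 0.000202). MAFF (ENSG00000185022, chromosome 22, 38200767 to 38216511), a small MAF protein without a transactivation domain that pairs with CNC factors such as NFE2L2, was at 3.82, 4.80 and 4.36 FPKM in LoVo-HM, against 8.19, 9.18 and 9.60 FPKM in LoVo. Its ratio of means was 0.481 and the highest LoVo-HM library stayed well under the lowest LoVo library (log2 difference -0.91 ± 0.092, limma adjusted p = 7.65e-05).

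ZFP36 (ENSG00000128016, chromosome 19, 39406813 to 39409412), or tristetraprolin, had 8.25, 7.53 and 8.54 FPKM in LoVo-HM, against 13.3, 13.9 and 13.8 FPKM in LoVo. It fell to a mean of 8.10 ± 0.522 FPKM in LoVo-HM, against 13.7 ± 0.321 FPKM in LoVo (log2 difference -0.69 ± 0.066, limma adjusted p = 5.09e-05), without overlap. EGR1 (ENSG00000120738, chromosome 5, 138465490 to 138469315), a zinc finger factor known to be induced through promoter CArG boxes such as those printed above, was low in both lines, at 1.68, 1.63 and 1.79 FPKM in LoVo-HM, against 1.67, 2.22 and 2.15 FPKM in LoVo. LoVo replicate 1 lay within the LoVo-HM range while the other two LoVo libraries lay above it, and the log2 difference was -0.15 (95% interval -0.39 to 0.08, limma adjusted p = 0.257). EGR1 and FOS stood at the 18.4th and 13.3rd percentile of mean level among tested genes, whereas JUND and JUNB stood at the 87.9th and 83.0th.

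**Figure D3:**
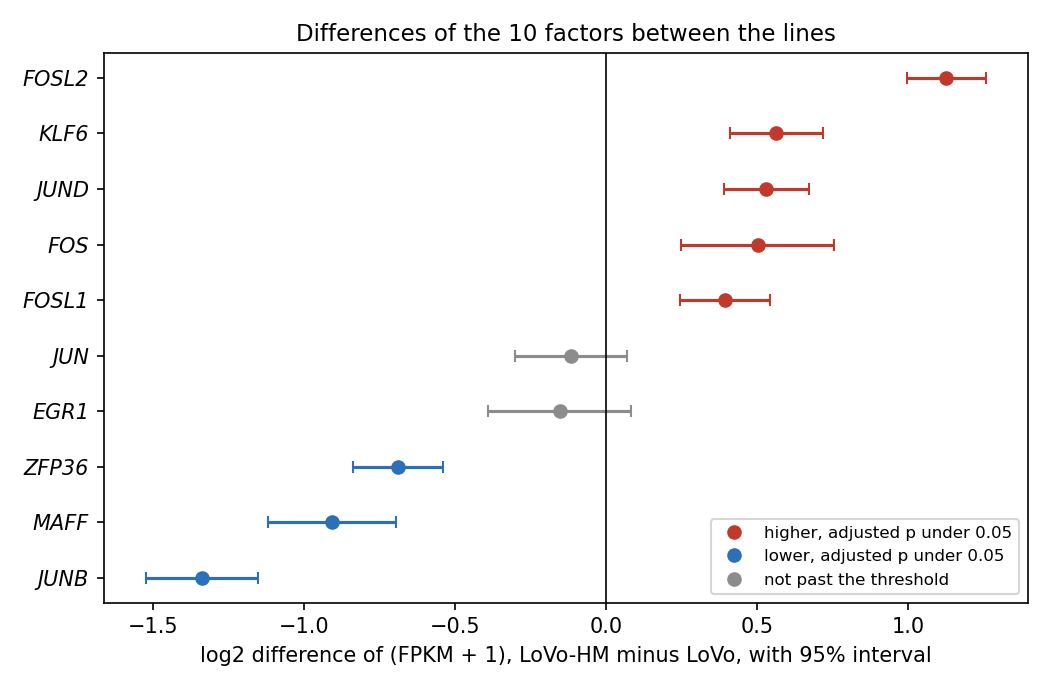
Log2 difference of (FPKM + 1), LoVo-HM minus LoVo, for the 10 genes with limma's 95% intervals, in order of size. FOSL2 lies at 1.13 and JUNB at -1.34, and the intervals of JUN and EGR1 include 0.

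By mean level the order in LoVo-HM was JUND, FOSL1, FOSL2, KLF6, JUNB, ZFP36, JUN, MAFF, EGR1 and FOS. Of these neighbours, KLF6 and JUNB, ZFP36 and JUN, and EGR1 and FOS overlapped between libraries. In LoVo the order was JUNB, JUND, FOSL1, ZFP36, KLF6, FOSL2, MAFF, JUN, EGR1 and FOS, and there MAFF and JUN overlapped. JUNB stood at place 5 in LoVo-HM and place 1 in LoVo, and FOSL2 at place 3 in LoVo-HM and place 6 in LoVo.

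The relatives and partners of the 10 genes were counted by the same fit, with no test of the lists themselves. Beside each count stands the share over all tested genes, of which 21.8% rose and 23.1% fell. A gene that is low in 1 line could pass the filter through the other line alone, so the counts and medians describe the genes that passed. Of 8 other AP-1 and related leucine zipper genes, 7 were tested, of which 2 rose, FOSB fell and 4 did not pass the threshold (median log2 difference 0.11). BATF, an AP-1 partner known from lymphocytes, had 0.943, 1.31 and 1.58 FPKM in LoVo-HM, while each LoVo library listed it at 0. It passed the filter through LoVo-HM alone, so its levels are given without a p-value, though it is counted among the 2 that rose. ATF2, a dimer partner of JUN, rose to 15.2 ± 0.422 FPKM in LoVo-HM, against 11.1 ± 0.434 FPKM in LoVo (log2 difference 0.42 ± 0.058, limma adjusted p = 0.000497). The stress-induced ATF3 overlapped, at 4.08, 5.605 and 6.13 FPKM in LoVo-HM, against 4.53, 5.40 and 4.55 FPKM in LoVo (limma adjusted p = 0.588). Without LoVo-HM replicate 3 the count of this list was 1 higher, as BATF then fell below the filter, and 0 lower. Without LoVo replicate 2 it had 0 lower, and without LoVo replicate 3 it had 2 lower. A filter at a mean of 2 FPKM gave 1 higher and 0 lower, and no filter gave 2 lower.

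Other immediate early transcription factors did not share a direction. Of 12, 9 were tested, of which 3 rose, 2 fell and 4 did not pass (median 0.10). IER5, a regulator of heat shock factor, rose to 21.9 ± 1.05 FPKM in LoVo-HM, against 14.3 ± 0.611 FPKM in LoVo (log2 difference 0.59 ± 0.06, limma adjusted p = 7.95e-05). NR4A2, an orphan nuclear receptor, fell to 0.707 ± 0.0523 FPKM in LoVo-HM, against 2.51 ± 0.251 FPKM in LoVo (-1.04 ± 0.098, limma adjusted p = 4.93e-05). KLF4, a factor of differentiated gut epithelium, fell to 8.55 ± 0.345 FPKM in LoVo-HM, against 14.4 ± 0.631 FPKM in LoVo. MYC was at 137 ± 2.03 FPKM in LoVo-HM, against 138 ± 2.37 FPKM in LoVo (limma adjusted p = 0.741).

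Among immediate early genes that do not encode transcription factors, changes went both ways. Of 18, 16 were tested, of which 9 rose, 5 fell and 2 did not pass (median 0.53). CCN1, a matricellular protein listed in the table under its older symbol CYR61, had 21.2, 19.8 and 20.7 FPKM in LoVo-HM, against 4.04, 4.49 and 4.48 FPKM in LoVo (2.02 ± 0.066, limma adjusted p = 5.28e-08). SGK1, a kinase regulated by serum and glucocorticoids, had 2.49, 2.04 and 2.41 FPKM in LoVo-HM, against 49.6, 48.9 and 51.2 FPKM in LoVo (-3.94 ± 0.07, limma adjusted p = 1.71e-09). IER3, a stress-induced survival factor, fell to 35.6 ± 1.70 FPKM in LoVo-HM, against 123 ± 2.85 FPKM in LoVo (-1.76 ± 0.048).

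**Figure D4:**
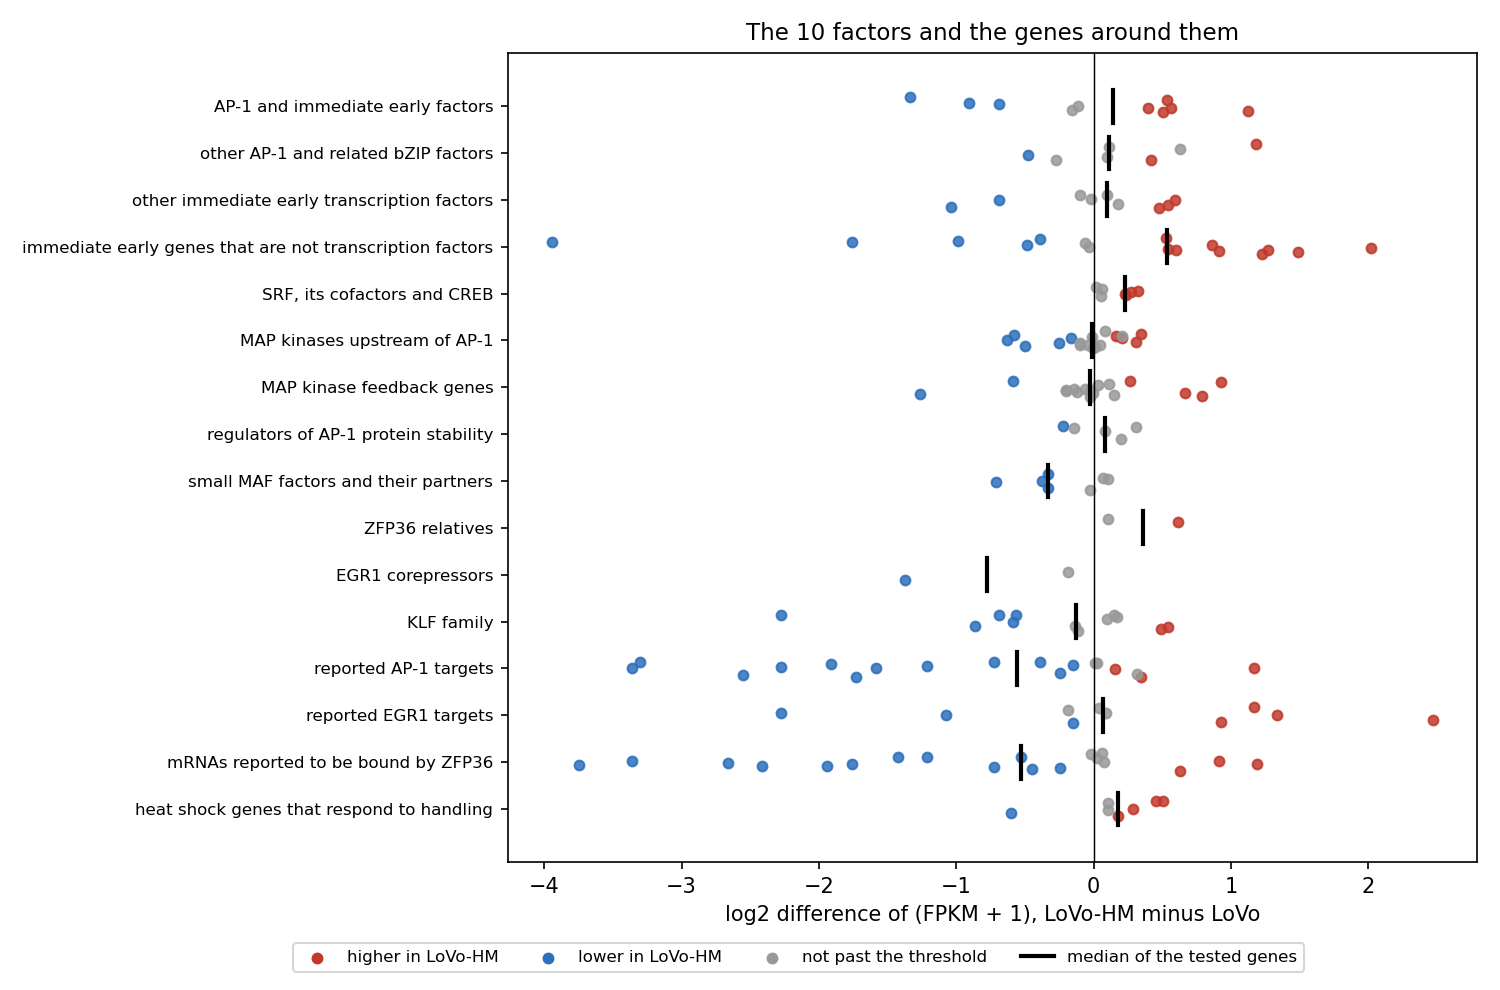
Log2 difference of (FPKM + 1), LoVo-HM minus LoVo, of each tested gene of the 10 factors and of 15 lists around them, red where higher, blue where lower and grey where not past the threshold, with black bars at list medians. The 10 factors have a median of 0.14, reported AP-1 targets -0.56 and messengers reported to be bound by ZFP36 -0.53.

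Genes upstream of the early response moved in both directions or did not pass the test. SRF, the serum response factor, was at 18.6, 20.02 and 17.3 FPKM in LoVo-HM, against 17.8, 18.6 and 18.9 FPKM in LoVo (log2 difference 0.01, limma adjusted p = 0.877). Of 7 genes for SRF, its cofactors and CREB, 4 rose and 3 did not pass (median 0.23). ELK3 rose to 8.60 ± 0.512 FPKM in LoVo-HM, against 6.68 ± 0.0578 FPKM in LoVo (0.32 ± 0.068, limma adjusted p = 0.00482), and ELK1 and MRTFA passed with 0.24 ± 0.062 and 0.23 ± 0.069. The count of this list was 1 without LoVo-HM replicate 1, and 2 without LoVo replicate 1 or 2. ELK1 lost its call without LoVo-HM replicate 1 (adjusted p = 0.0575), and MRTFA without LoVo-HM replicates 1 or 3 or LoVo replicates 1 or 2 (0.0514 to 0.0785).

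Of 19 MAP kinase pathway genes, 18 were tested, of which 4 rose, 5 fell and 9 did not pass (median -0.01). The count that rose was 2 without LoVo replicate 2 or 3, and also in the fit without an intensity trend. The ERK-activated kinase RPS6KA1 fell to 23.5 ± 0.507 FPKM in LoVo-HM, against 33.5 ± 0.118 FPKM in LoVo (-0.50 ± 0.046, limma adjusted p = 4.28e-05). MAP2K4, which activates JNK, fell to 11.9 ± 0.748 FPKM in LoVo-HM, against 18.3 ± 0.438 FPKM in LoVo (-0.58 ± 0.062), and MAP2K6, which activates p38, to 0.623 ± 0.134 FPKM in LoVo-HM, against 1.52 ± 0.166 FPKM in LoVo. Transcripts say nothing of the activity of these kinases.

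Of 17 MAP kinase feedback genes, 4 rose, 2 fell and 11 did not pass (median -0.03). Without LoVo-HM replicate 2, 4 fell, and with a filter at a mean of 2 FPKM, 1 fell. SPRY2, which restrains receptor signalling, was at 15.7 ± 1.09 FPKM in LoVo-HM, against 7.78 ± 0.609 FPKM in LoVo (0.92 ± 0.077, limma adjusted p = 2.14e-05), and ETV5, an ERK-induced factor, at 13.4 ± 0.715 FPKM in LoVo-HM, against 7.34 ± 0.523 FPKM in LoVo. DUSP10, a phosphatase of JNK and p38, fell to 0.620 ± 0.125 FPKM in LoVo-HM, against 2.90 ± 0.509 FPKM in LoVo (-1.26 ± 0.122). DUSP1, the immediate early phosphatase, overlapped at 4.32, 4.43 and 3.97 FPKM in LoVo-HM, against 5.04, 3.87 and 4.14 FPKM in LoVo (limma adjusted p = 0.855).

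Of 5 genes that control AP-1 protein stability, COP1, a ubiquitin ligase for JUN, passed the test, at 9.77 ± 0.727 FPKM in LoVo-HM, against 11.5 ± 0.0954 FPKM in LoVo (-0.22 ± 0.067, limma adjusted p = 0.0259; list median 0.08). Its call was lost without LoVo-HM replicates 1 or 2 or any 1 LoVo library (adjusted p 0.0573 to 0.0763). The ligase subunit FBXW7 was at 9.04 ± 0.154 FPKM in LoVo-HM, against 10.1 ± 0.740 FPKM in LoVo (limma adjusted p = 0.12).

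Of 7 small MAF genes and their CNC and BACH partners, 4 fell and 3 did not pass (median -0.33). BACH1, a repressor that pairs with small MAF proteins, fell to 4.34 ± 0.413 FPKM in LoVo-HM, against 7.74 ± 0.510 FPKM in LoVo (-0.71 ± 0.084, limma adjusted p = 0.00019), and the CNC factors NFE2L1 and NFE2L3 also fell, with -0.38 ± 0.045 and -0.33 ± 0.054. ZFP36L1, which shares the zinc fingers of ZFP36, rose to 25.3 ± 1.62 FPKM in LoVo-HM, against 16.2 ± 0.435 FPKM in LoVo (0.61 ± 0.061, limma adjusted p = 6.82e-05). ZFP36L2, the other relative listed, was at 25.4 ± 0.853 FPKM in LoVo-HM, against 23.7 ± 1.44 FPKM in LoVo (limma adjusted p = 0.204; median of the pair 0.36).

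Of the corepressors that bind EGR1, NAB1 fell to 18.7 ± 1.85 FPKM in LoVo-HM, against 50.01 ± 3.73 FPKM in LoVo (-1.38 ± 0.081, limma adjusted p = 2.42e-06). NAB2 was at 5.67 ± 0.382 FPKM in LoVo-HM, against 6.57 ± 0.271 FPKM in LoVo (limma adjusted p = 0.0745; median of the pair -0.78). Of 12 other KLF genes, 2 rose, 5 fell and 5 did not pass (median -0.13). The count that rose was 1 without LoVo-HM replicate 1, and also with no filter on low values. KLF5, a factor of proliferating crypt cells, fell to 37.05 ± 0.778 FPKM in LoVo-HM, against 184 ± 3.21 FPKM in LoVo (-2.28 ± 0.040, limma adjusted p = 1.71e-09). KLF13 also fell, with -0.86 ± 0.069.

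Of 28 genes reported as AP-1 targets, 18 were tested, while 10 were too low to test. Of the 18, 12 fell, 3 rose and 3 did not pass, where 23.1% of all tested genes fell and 21.8% rose. Their median was -0.56, against 0.0027 over all tested genes. FGFBP1, which releases fibroblast growth factors from the matrix, had 2.30, 2.95 and 2.64 FPKM in LoVo-HM, against 33.0, 34.2 and 36.9 FPKM in LoVo (-3.30 ± 0.082, limma adjusted p = 1.09e-08). The laminin chain LAMB3 and the chemokine CXCL8, the other two with the smallest p-values, differed by -2.55 and -3.36.

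Of 11 genes reported as EGR1 targets, 10 were tested, of which 4 rose, 3 fell and 3 did not pass (median 0.07). THBS1, the matrix protein thrombospondin, rose to 13.4 ± 0.541 FPKM in LoVo-HM, against 1.59 ± 0.235 FPKM in LoVo (2.47 ± 0.086, limma adjusted p = 8.31e-08), and fibronectin FN1 rose by 1.33, whereas F3, the coagulation initiator tissue factor, fell to 6.47 ± 0.507 FPKM in LoVo-HM, against 35.1 ± 1.72 FPKM in LoVo.

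Of 22 messengers reported to be bound by ZFP36, 19 were tested, of which 12 fell, 3 rose and 4 did not pass (median -0.53). Of all tested genes, 23.1% fell and 21.8% rose. CXCL8, CXCL1 and IER3 had the smallest p-values, with -3.36, -3.75 and -1.76. Several genes, CXCL8 and PLAUR among them, stand on both this list and that of AP-1 targets, and many of these genes have other regulators, so the counts describe genes with such reports and not the activity of a factor. Other lists share genes too, so their counts are not independent. For example, F3 is on the AP-1 and EGR1 target lists, and KLF4 on the lists of KLF genes and other immediate early factors.

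Series-level values bear on these results as follows. Library totals were 424624 to 428265 FPKM in LoVo-HM, against 434108 to 439082 FPKM in LoVo, and mitochondrially encoded genes took 17.5 to 18.6% of them in LoVo-HM and 20.9 to 21.8% in LoVo. The 5 epithelial markers summed to 2599 to 2702 FPKM in LoVo-HM, against 2008 to 2063 FPKM in LoVo, and none of them was at 0. Among these 5, KRT8, KRT18 and KRT19 rose, whereas EPCAM stood at 51.7 ± 2.60 FPKM in LoVo-HM, against 128 ± 1.99 FPKM in LoVo, and CDH1 at 7.91 ± 0.359 FPKM in LoVo-HM, against 48.0 ± 1.38 FPKM in LoVo, and both fell. Markers of other cell types were low: 6 fibroblast markers summed to 4.80 to 5.74 FPKM in LoVo-HM, against 4.83 to 6.36 FPKM in LoVo, 6 immune markers to 2.90 to 3.30 FPKM in LoVo-HM, against 3.84 to 4.02 FPKM in LoVo, and 4 endothelial markers to 0.0477 to 0.109 FPKM in LoVo-HM, against 0.0165 to 0.0384 FPKM in LoVo. COL1A1 made up most of the fibroblast sum, at 4.75 FPKM in LoVo-HM, against 5.62 FPKM in LoVo. CD68 made up most of the immune sum and fell, at 2.55 FPKM in LoVo-HM, against 3.44 FPKM in LoVo. DCN, LUM, PDGFRA and the endothelial marker CDH5 were too low to test but lay higher in LoVo-HM without overlap. The highest of these, LUM, averaged 0.284 FPKM in LoVo-HM, against 0.0177 FPKM in LoVo, while COL1A1 and PDGFRB overlapped. COL1A2, PTPRC, PECAM1 and KDR were listed at 0 in every library. Of 7 heat shock genes that respond to handling, 4 rose, BAG3 fell and 2 did not pass (median 0.18). HSP90AA1 was at 489 ± 17.5 FPKM in LoVo-HM, against 358 ± 7.36 FPKM in LoVo, DNAJB1 at 63.8 ± 0.125 FPKM in LoVo-HM, against 52.2 ± 1.31 FPKM in LoVo, and BAG3 at 17.5 ± 1.38 FPKM in LoVo-HM, against 27.1 ± 0.377 FPKM in LoVo, and their part in the results on the early genes was not tested.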

How the data were processed

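Per the labels' protocols, Trizol-harvested RNA went into TruSeq libraries (Illumina). The FPKM values were deposited in a single table, 1 column for each library. The genome build, per the submitters' processing notes, was GRCh38. Aligner, counter, annotation release and strand setting: not given in the sources used here. Values below 0.3 FPKM showed no steps worth 1 read (over 1572 genes in LoVo-HM replicates 1 and 2, no bin of ratios 0.05 log2 units wide held over 2.61% of them), so the depth is unknown and no counting intervals are given.

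Values were used as deposited. Genes averaging 0.5 FPKM or more were tested as log2(FPKM + 1) with limma 3.58.1 in R 4.3.3 (intensity trend, two-sided, 3 libraries against 3), adjusted by Benjamini-Hochberg over all tested genes, with a threshold of 0.05. Gene positions are from GENCODE 29 and promoters from RefSeq. The members and lists were chosen with earlier results of these data known. Named are the 10 members, FOSB, ATF3, SRF, DUSP1, MYC and up to 3 tested genes with the smallest p-values of each list, of which 1 is not reported here. The epithelial, fibroblast, immune and endothelial marker genes, PLAUR and HOOK2 were named after their values were seen. Alternatives tried: a pseudocount of 0.1 or 0.5, a low-value filter at 2 FPKM or none, 3 other scalings, fits without a trend, with robust estimates or with a replicate block, leaving out each library, and FOSB left out of the family sum.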

Additional observations from a re-analysis of the deposited data

How the results depend on the processing

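Each of the 10 genes kept its direction and its side of the threshold in every alternative that tested it, 158 values in all. FOS and EGR1 were not tested with a filter at a mean of 2 FPKM, which left 4 of the 10 called higher in place of 5, and 3 were called lower under each alternative. JUNB ranged from -1.43 to -1.27, FOSL2 from 1.09 to 1.20 and JUND from 0.47 to 0.57. JUN ranged from -0.16 to -0.05 (adjusted p 0.206 to 0.627) and EGR1 from -0.24 to -0.06 (adjusted p 0.102 to 0.627). Of the other genes named, FOSB, ELK1, MRTFA and COP1 lost their calls without the libraries given above. With FOSB left out of the family sum, FOSL1 and FOSL2 had 65.6% and 31.5% of it in LoVo. Over all genes 5484 to 6626 were called, against 6508 in the fit reported, and the median log2 difference over all genes stayed between -0.0044 and 0.0424.

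No pairing by replicate number was seen. The deviations of same-numbered libraries from their group means correlated at -0.0070, 0.0215 and 0.0264, and LoVo-HM replicates 1 and 2 correlated best with another number. Correlations this near 0 cannot tell whether same-numbered libraries shared a culture or a day, and the labels do not say. With the replicate number as a block, 6459 genes were called, and 5 of the 10 genes were higher and 3 lower.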
